A study of Mus musculus with 3 samples.

Results

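Chemokines are small secreted proteins that guide white blood cells. Described here are 8 of them in single tdTomato-positive cells of the mouse hippocampus: Cxcl9, Cxcl10, Cxcl13, Cxcl16, Ccl5, Ccl6, Ccl9 and Ccl25, of 31053 genes listed. They were chosen by symbol as CXC chemokines and the less inducible CC chemokines, with the levels of chemokine genes in these same cells already seen, and the question was which population of cells makes each. Levels by population are therefore descriptions. The tests do not support the choice of genes.

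All 3 runs, named Run 1 to Run 3, form 1 group without a control, so every contrast is between cells of the same runs. The mice had the genotype Cx3cr1CreERT2/+, Rosa26tdTomato/+ and NestinTK-eGFP/+, and were given tamoxifen at 100 mg/kg on 4 days. CreERT2 is a tamoxifen-dependent recombinase that takes the place of 1 Cx3cr1 allele, so it labels cells that use this locus, chiefly microglia and related macrophages, and all cells carry a single working copy of Cx3cr1. Both hippocampi were taken after perfusion, myelin was removed on magnetic columns, and viable cells were sorted and loaded on 10x Genomics chips. The labels name 12 animals, 6 male and 6 female, without assigning them to runs. Nothing says that runs are separate animals, so p-values reflect differences between these runs at most. In the fits reported, with the run as a block, the spread was shared among genes, and a gene's own spread between runs was not estimated apart from it.

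Cxcl9 and Cxcl10 are induced by interferons and bind Cxcr3 on activated T and NK cells. Cxcl13 binds Cxcr5 and draws B cells, Cxcl16 is made as a membrane protein that Adam10 can shed and that binds Cxcr6, and Ccl5 is a ligand of Ccr1 and Ccr3 and a standard product of cytotoxic lymphocytes. Ccl6 and Ccl9 are rodent ligands of Ccr1 made by myeloid cells, and Ccl25 binds Ccr9 and is best known from thymus and small intestine. Microglia are the resident macrophages of brain tissue, whereas border macrophages live in the meninges, around vessels and in the choroid plexus.

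Positions are those of the GENCODE M21 annotation of GRCm38. Cxcl9 (ENSMUSG00000029417, chr5:92321347-92328079, minus strand) and Cxcl10 (ENSMUSG00000034855, chr5:92346638-92348889, minus strand) lie 18.6 kb apart. Cxcl13 (ENSMUSG00000023078, chr5:95956951-95961068, plus strand) lies 3608 kb further along the same chromosome. Ccl5 (ENSMUSG00000035042, chr11:83525778-83530518), Ccl9 (ENSMUSG00000019122, chr11:83572919-83578636) and Ccl6 (ENSMUSG00000018927, chr11:83587882-83593087) follow each other on the minus strand, with gaps of 42.4 and 9.25 kb. Cxcl16 (ENSMUSG00000018920, chr11:70453983-70459984, minus strand) stands apart on that chromosome, and Ccl25 (ENSMUSG00000023235, chr8:4325210-4360020, plus strand) on another. Each is protein-coding, and each span covers the whole gene, exons and introns together. On the opposite strand Cxcl10 lies inside Art3, Cxcl16 overlaps Zmynd15, Ccl25 overlaps Elavl1, and Ccl6 overlaps E230016K23Rik, the only one of these 4 that is not in the count tables.

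Promoter sequences are shown for the interferon-induced neighbours Cxcl9 and Cxcl10, whose UMIs sat in few cells, and for Ccl9, which was detected in more cells than any other of the 8. They are the 250 bases before the start of the gene, from RefSeq on GRCm38.p6, read 5′ to 3′ on the strand of the gene. The table had an entry for 6 of the 8 genes, all but Cxcl16 and Ccl5. Capitals mark a match to the interferon-stimulated response element (ISRE, spelled GAAA, any 2 bases, GAAA) or to a kappaB site (spelled GGG, any 2 bases, TT, any 1 base, CC), searched on both strands.
Cxcl9, chr5:92328080-92328329, minus strand: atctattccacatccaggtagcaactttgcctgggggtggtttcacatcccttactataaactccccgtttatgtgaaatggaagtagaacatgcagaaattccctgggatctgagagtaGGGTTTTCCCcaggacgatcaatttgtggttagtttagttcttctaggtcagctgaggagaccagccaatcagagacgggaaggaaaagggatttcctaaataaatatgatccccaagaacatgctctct
Cxcl10, chr5:92348890-92349139, minus strand: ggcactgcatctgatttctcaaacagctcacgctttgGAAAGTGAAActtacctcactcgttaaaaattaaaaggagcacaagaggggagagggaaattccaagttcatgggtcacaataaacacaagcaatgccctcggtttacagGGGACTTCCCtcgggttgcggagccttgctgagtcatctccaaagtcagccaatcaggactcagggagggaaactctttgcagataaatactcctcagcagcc
Ccl9, chr11:83578637-83578886, minus strand: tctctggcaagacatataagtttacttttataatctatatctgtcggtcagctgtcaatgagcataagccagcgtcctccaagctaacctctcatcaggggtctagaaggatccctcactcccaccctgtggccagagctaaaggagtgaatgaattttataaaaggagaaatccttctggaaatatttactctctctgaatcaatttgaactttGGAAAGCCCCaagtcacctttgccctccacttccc
Cxcl10 held the only ISRE match among the 6 genes, 213 to 204 bases before the start, a motif found in 2.98% of 32851 mouse promoter windows of the same length. A kappaB match was found in Cxcl9 at 130 to 121 bases, in Cxcl10 at 103 to 94 bases and in Ccl9, on the other strand, at 35 to 26 bases, against 4.11% of all windows. The gamma-activated sequence (TTCNNNGAA, 7.02% of windows) and the PU box (GAGGAA, 23.3%) had no match in these genes. A match describes the letters only.

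Unique molecular identifiers (UMIs) stand for single captured RNA molecules. Barcodes with 1000 or more UMIs, 500 or more genes and a mitochondrial share of no more than 10% were kept as cells, 19791 of 20376. The runs held 6993, 6720 and 6078 of these cells, with medians of 4425, 3438 and 3696 UMIs per cell. Pairs of runs shared 7 to 8 kept barcodes. Each cell took the first of a fixed order of marker gates that it met. Microglia, the cells with at least 3 of 10 homeostatic markers and no other gate, numbered 19042, which was 96.2% of cells and 94.4% of UMIs. The other gates of the question held 172 border macrophages (83, 35 and 54 in runs 1 to 3), 70 MHC class II-high cells (12, 20 and 38), 85 interferon-responsive microglia (41, 19 and 25), 62 cycling microglia (36, 10 and 16) and 13 T/NK cells (2, 3 and 8). A pair of further microglial states was kept apart because their cells are active chemokine makers, 167 cells with markers of the lipid-handling state (75, 58 and 34) and 108 Ccl3/Ccl4-high cells (27, 33 and 48). Choroid plexus epithelium-like cells, 58 in all, served as a type that should lack these chemokines.

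Some gates mix cells. Of the 172 border macrophages, 30 (17.4%) had mixed sex markers, that is UMIs of Xist and of Y-linked genes, 26 of them among the 83 of Run 1 (31.3%), as droplets holding RNA of a female and a male animal would. The MHC class II-high cells carried a median of 4 of the 10 microglia markers. Of 7 dendritic cell markers none was at 0 in them, and these markers summed to 122 to 771 CPM (UMIs of a gene per 1000000 UMIs of the population) per run, against 6.11 to 7.66 CPM in microglia. Their 4 monocyte markers summed to 279 to 1005 CPM, led by Ccr2 and Plac8, against 3.40 to 5.05 CPM in microglia. The B cell genes Cd79a and Ms4a1 were at 0 in them, and the neutrophil list gave 1 UMI. The part of these other cell types in the results on MHC class II-high cells was not tested.

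The 8 chemokines fell into those read from a handful of cells and those read from a large share of all cells. Cxcl9 had 1267 UMIs in 40 cells, and 4 cells held 50% of them. Cxcl10 had 911 UMIs in 53 cells, again with 4 cells holding 50%. Cxcl13 was narrower still, with 169 UMIs in 7 cells and 84.0% of them in a single cell. Ccl5 had 1185 UMIs in 104 cells, of which 7 held 50%. At the other end, Ccl9 had 19195 UMIs in 9336 cells (47.2% of all) and Ccl6 had 16390 UMIs in 8654 cells (43.7%), and it took over 2000 cells to reach 50% of either (2252 and 2103). Cxcl16 had 4797 UMIs in 3646 cells (18.4%), and Ccl25 had 1895 UMIs in 1741 cells (8.80%), with no more than 3 in any of them.

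**Figure D1:**
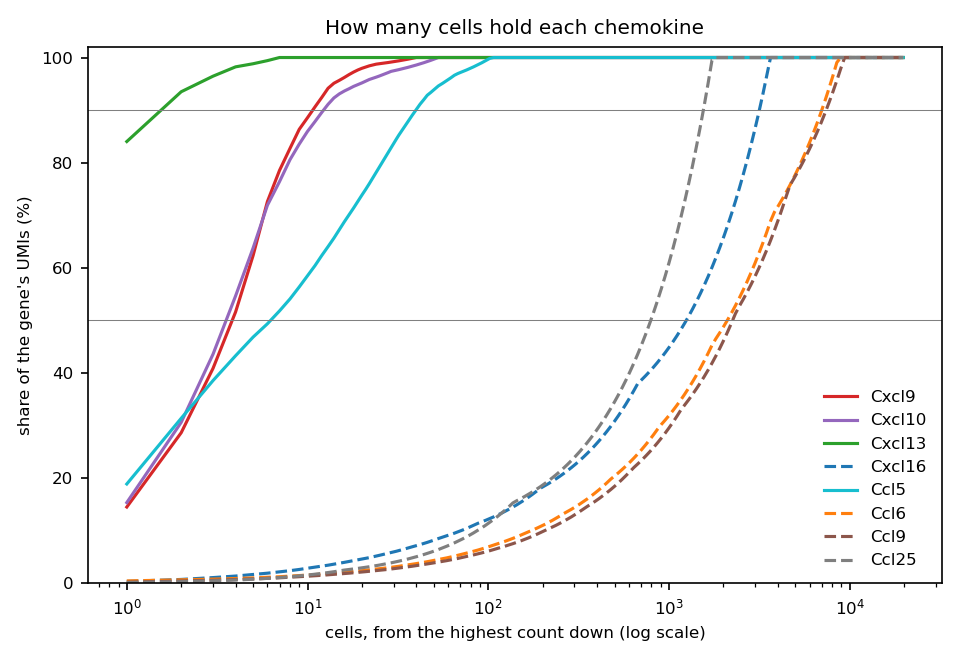
Share of each chemokine's UMIs (percent, vertical axis) against the number of cells that hold them, counted from the cell with the most UMIs (log axis), over 19791 kept cells of 3 runs. Cxcl13, Cxcl9, Cxcl10 and Ccl5 reach 50% within 1, 4, 4 and 7 cells, while Cxcl16, Ccl6 and Ccl9 need over 1000.

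Nearly all Ccl25, Ccl9 and Ccl6 UMIs came from the large microglia gate (96.2%, 92.8% and 92.1%), close to its 94.4% of all UMIs. Cxcl16 was less microglial, at 82.3%. The other 4 came mostly from rare cells. MHC class II-high cells, with 0.662% of all UMIs, gave 75.8% of Cxcl9 and 33.9% of Cxcl10. Border macrophages, with 1.55% of all UMIs, gave 17.1% of Cxcl9 and 52.5% of Cxcl10. T/NK cells gave 54.2% of Ccl5, and cycling cells 88.8% of Cxcl13. In these sums more cells of a type and more RNA per cell are not separated, so levels in CPM follow.

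**Figure D2:**
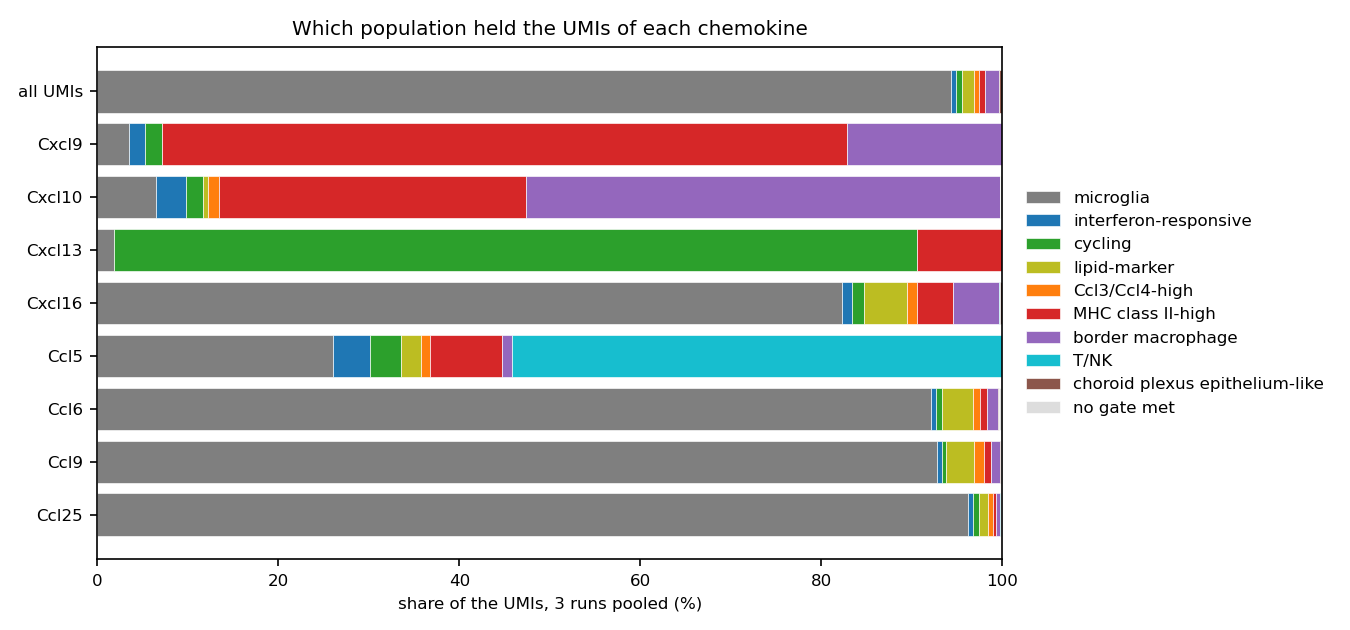
Share of each chemokine's UMIs by marker-gated population (percent, stacked bars, all 3 runs together), with the share of all UMIs in the top bar. Ccl6, Ccl9 and Ccl25 come almost wholly from microglia, Cxcl9 from MHC class II-high cells (75.8%), Cxcl10 from border macrophages (52.5%) and MHC class II-high cells (33.9%), Ccl5 from T/NK cells (54.2%) and Cxcl13 from cycling cells (88.8%).

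The contrasts with microglia used edgeR's quasi-likelihood test on UMIs summed per run and population, with Benjamini-Hochberg adjustment over all genes and a threshold of 0.05. T/NK cells were not tested, with 2 cells in Run 1 and 3 in Run 2. Cxcl13 was too sparse for any of the 6 fits. Cxcl9 and Cxcl10 entered 3 of them, only through the population in which they were high, so they are left out of the counts here and described below. The other 5, Cxcl16, Ccl5, Ccl6, Ccl9 and Ccl25, entered every fit. In interferon-responsive cells 2 of the 5 rose and none fell, where 2.36% of 11160 genes passed, 1.88% on the higher and 0.475% on the lower side. In MHC class II-high cells 2 of 5 rose and none fell, where 16% passed, 8.24% higher and 7.77% lower. In border macrophages 1 of 5 rose and 2 fell, where 12.7% passed, 7.72% higher and 4.94% lower. In cycling cells 2 of 5 rose and 1 fell, where 17.3% passed, 9.39% higher and 7.88% lower. In lipid-marker cells 4 of 5 rose and none fell, where 15.9% passed, 7.86% higher and 8.07% lower. In Ccl3/Ccl4-high cells 3 of 5 rose and none fell, where 5.15% passed, 3.2% higher and 1.96% lower. Of the genes that passed in this last contrast 62.0% were higher, and 74.0% with DESeq2's size factors. The median log2 difference of the 5 was -0.02 in interferon-responsive cells, 0.60 in MHC class II-high cells, -0.29 in border macrophages, 0.19 in cycling cells, 1.39 in lipid-marker cells and 1.11 in Ccl3/Ccl4-high cells. Over all genes tested the medians lay between -0.25 and -0.08.

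**Figure D3:**
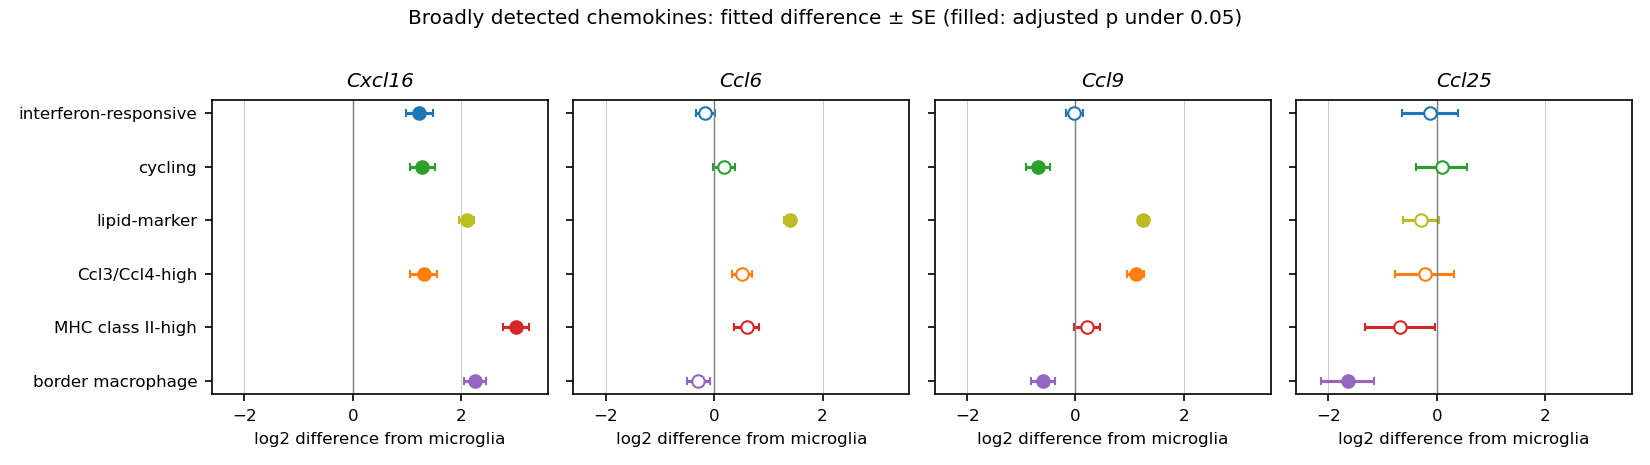
Log2 difference from microglia with its standard error (horizontal axis) for the 4 broadly detected chemokines in 6 populations, from edgeR's quasi-likelihood fit over 3 runs; filled points passed an adjusted p of 0.05. Cxcl16 lies above 0 and passed in all 6 populations, and Ccl25 passed, on the lower side, in border macrophages alone.

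Cxcl9 was highest in MHC class II-high cells, at 535, 3714 and 1423 CPM in runs 1, 2 and 3 (1891 ± 1641 CPM, mean ± SD, n = 3). No other population reached these values: border macrophages had 9.44, 505 and 485 CPM, interferon-responsive cells 15.8, 136 and 61.4 CPM. Microglia had 0.128, 1.36 and 0.351 CPM, below the lowest run of each of these 3 populations. Cycling cells had 79.4 CPM in Run 1 and no UMI in the other runs, and lipid-marker, Ccl3/Ccl4-high, T/NK and choroid plexus epithelium-like cells had none. The log2 difference from microglia was 11.87 ± 0.38 (SE) in MHC class II-high cells (adjusted p = 1.22e-208), 9.14 ± 0.32 in border macrophages (adjusted p = 3.06e-176) and 6.83 ± 0.72 in interferon-responsive cells (adjusted p = 9.52e-19). Cxcl9 passed the count filter of each fit only through the population in which it was high. Its adjusted p-values, here and under the alternatives, are therefore no support for a difference. The difference between MHC class II-high cells and border macrophages was not tested, but their runs did not overlap, whereas those of border macrophages and interferon-responsive cells did.

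Few cells stood behind these levels. In Run 1 a single MHC class II-high cell held all 46 Cxcl9 UMIs of its population, in Run 3 a single border macrophage held all 130, and in Run 2 a single border macrophage held 75 of 79. Of the 85 interferon-responsive cells, 3 had a Cxcl9 UMI. With the highest cell of each run and population left out, Cxcl9 no longer had counts enough to enter these fits. With 1 run left out at a time, every one of the 3 calls was kept. The log2 difference then ran from 11.71 to 12.20 in MHC class II-high cells, from 8.27 to 9.76 in border macrophages and from 6.59 to 7.19 in interferon-responsive cells. Over the alternatives that gave a value, the highest adjusted p of Cxcl9 was 1.98e-10, 6.75e-05 and 0.00182 in these populations.

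Cxcl10 was spread over the same populations in another order. Border macrophages had 146, 2265 and 0 CPM in runs 1, 2 and 3 (804 ± 1267 CPM, n = 3), MHC class II-high cells 198, 568 and 661 CPM, and interferon-responsive cells 55.3, 159 and 17.5 CPM. Microglia had 0.352, 1.53 and 0.527 CPM. The runs of border macrophages spanned those of every other population, from no UMI in Run 3 to the highest value of all in Run 2, while each run of MHC class II-high cells lay above each run of interferon-responsive cells. Cycling cells had 224 CPM in Run 2 alone and Ccl3/Ccl4-high cells 56.8 CPM in Run 3 alone. The log2 difference from microglia was 9.48 ± 0.32 in MHC class II-high cells (adjusted p = 5.91e-181), 9.23 ± 0.35 in border macrophages (adjusted p = 6.2e-147) and 6.54 ± 0.65 in interferon-responsive cells (adjusted p = 1.57e-21). Like Cxcl9, Cxcl10 entered these fits only through the population in which it was high. Its adjusted p-values, here and under the alternatives, are no support for a difference either. In Run 1, 118 of the 124 Cxcl10 UMIs of border macrophages sat in 1 cell, which also held Xist and Y-linked UMIs. Without all cells holding both, the difference in border macrophages was 9.20 (adjusted p = 7.44e-158). Without the highest cell of each run, the MHC class II-high difference was 9.28 (adjusted p = 4.45e-104), and Cxcl10 no longer entered the other 2 fits. It did not enter the border macrophage fit without Run 2 either. Over the alternatives that gave a value its highest adjusted p was 1.28e-11 in MHC class II-high cells, 0.00151 in border macrophages and 3.59e-05 in interferon-responsive cells.

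The MHC class II-high gate was read before the microglial gates but after that of border macrophages, so some border macrophages also met it. They were 58 of 172 (31, 16 and 11 per run), and they held all 217 Cxcl9, all 478 Cxcl10 and all 13 Ccl5 UMIs of border macrophages, in 6, 8 and 6 cells. The other 114 border macrophages had none of the 3, which allows a share of up to 2.63% of those cells with a UMI. A count of 3 UMIs in those cells would be 3.53 CPM. This is no upper limit on the level, because a single border macrophage could hold up to 140 Cxcl10 UMIs. The median depth of the 114 was 4953 UMIs, against 5966.5 in the 58. Together the 128 cells that met the MHC gate in either population had 1.18% of all UMIs, and held 92.9% of the Cxcl9 and 86.4% of the Cxcl10 UMIs. They held 7.61% of Cxcl16, 9.03% of Ccl5, 1.40% of Ccl6, 1.09% of Ccl9 and 0.580% of Ccl25. Among the 70 MHC class II-high cells proper, Cxcl9 was found in 10 of the 58 with at least 3 microglia markers (1363 CPM) and in 3 of the 12 with fewer (3689 CPM).

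Cells with much Cxcl9 and cells with much Cxcl10 were mostly different cells. At least 5 Cxcl9 UMIs were counted in 19 cells, of which 12 were MHC class II-high, 3 border macrophages, 2 interferon-responsive, 1 cycling and 1 in the microglia gate. At least 5 Cxcl10 UMIs were counted in 16 cells, of which 6 were MHC class II-high, 4 border macrophages, 2 interferon-responsive, 2 in the microglia gate, 1 cycling and 1 Ccl3/Ccl4-high. Only 5 cells were in both sets, which is 26.3% of the first and 31.3% of the second. For genes this rare the overlap was still large. With 1 UMI or more counted, 22.5% of cells with Cxcl9 also had Cxcl10, against 0.268% of all cells. The 129 cells of any population with at least 4 of the 9 interferon markers held 68.8% of Cxcl10 UMIs and 39.3% of Cxcl9 UMIs, though 16 and 11 of them had any. Within the interferon-responsive gate, 5 of 85 cells had a Cxcl10 UMI.

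**Figure D4:**
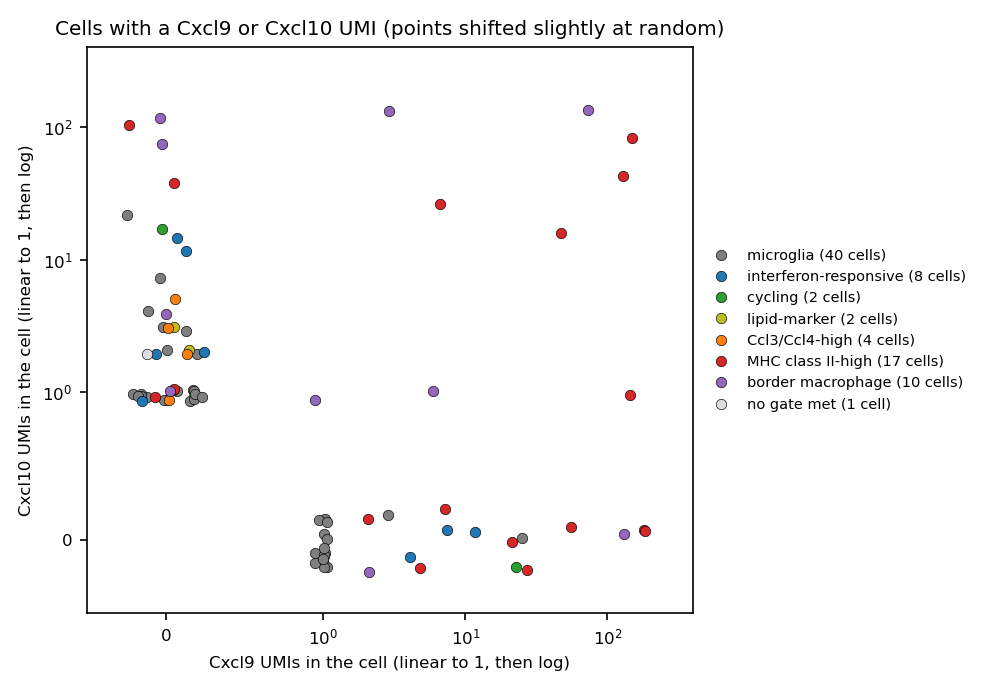
Cxcl9 UMIs (horizontal axis) against Cxcl10 UMIs (vertical axis) in every cell with a UMI of either, colored by population, both axes linear to 1 and then log, with points shifted slightly at random to show overlaps. Most cells lie along an axis: 5 cells have at least 5 UMIs of both, against 19 for Cxcl9 and 16 for Cxcl10 among 19791 kept cells.

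Cxcl13 was a matter of 4 cells. Its UMIs came to 518 CPM in cycling cells and 186 CPM in MHC class II-high cells, both in Run 1, and to none in these populations in runs 2 and 3. The 4 cells with at least 3 UMIs held 142, 16, 5 and 3 UMIs, and all were in Run 1. Each carried at least 5 of the 10 cycling markers, and 3 were cycling microglia while 1 was MHC class II-high. The cells with 142 and 16 UMIs also met the interferon-responsive gate, which was read after these 2 gates. Of all 7 cells with a Cxcl13 UMI, 3 met it. The cell with 142 also held 23 Cxcl9 and 30 Ccl5 UMIs. Microglia had 3 further UMIs in 3 cells. No run but the first bears on this gene, and Cxcr5, the receptor gene, had 4 UMIs in the whole data set.

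Cxcl16 was found in ordinary microglia and was higher in every state away from them. Microglia had 47.1, 55.2 and 51.7 CPM in runs 1, 2 and 3 (51.3 ± 4.0 CPM, n = 3). MHC class II-high cells had 267, 481 and 329 CPM, border macrophages 153, 454 and 164 CPM, and lipid-marker cells 186, 239 and 225 CPM. Ccl3/Ccl4-high cells had 225, 103 and 67.1 CPM, interferon-responsive cells 107, 68.1 and 184 CPM, and cycling cells 141, 79.0 and 159 CPM. The lowest run of each of these 6 populations lay above the highest run of microglia, while neighbours in their own order overlapped.

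The fitted differences of Cxcl16 passed in all 6. The log2 difference was 3.01 ± 0.24 in MHC class II-high cells (adjusted p = 6.85e-35), 2.25 ± 0.21 in border macrophages (adjusted p = 8.09e-26) and 2.10 ± 0.14 in lipid-marker cells (adjusted p = 1.11e-44). It was smaller in Ccl3/Ccl4-high cells (1.31 ± 0.25, adjusted p = 1.54e-05), cycling cells (1.29 ± 0.24, adjusted p = 1.14e-06) and interferon-responsive cells (1.23 ± 0.24, adjusted p = 4.8e-05). The first 3 passed under every alternative that could be fitted. The call was lost in interferon-responsive cells without Run 3 (0.93, adjusted p = 0.119), with 1 more marker asked of the gate (0.95, adjusted p = 0.129) or without the highest cell of each run (0.53, adjusted p = 0.557). It was also lost without Run 1 in cycling cells (0.95, adjusted p = 0.0985) and in Ccl3/Ccl4-high cells (0.69, adjusted p = 0.410). Among border macrophages, Cxcl16 was found in 47 of the 58 cells that met the MHC gate (411 CPM) and in 33 of the other 114 (83.6 CPM).

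**Figure D5:**
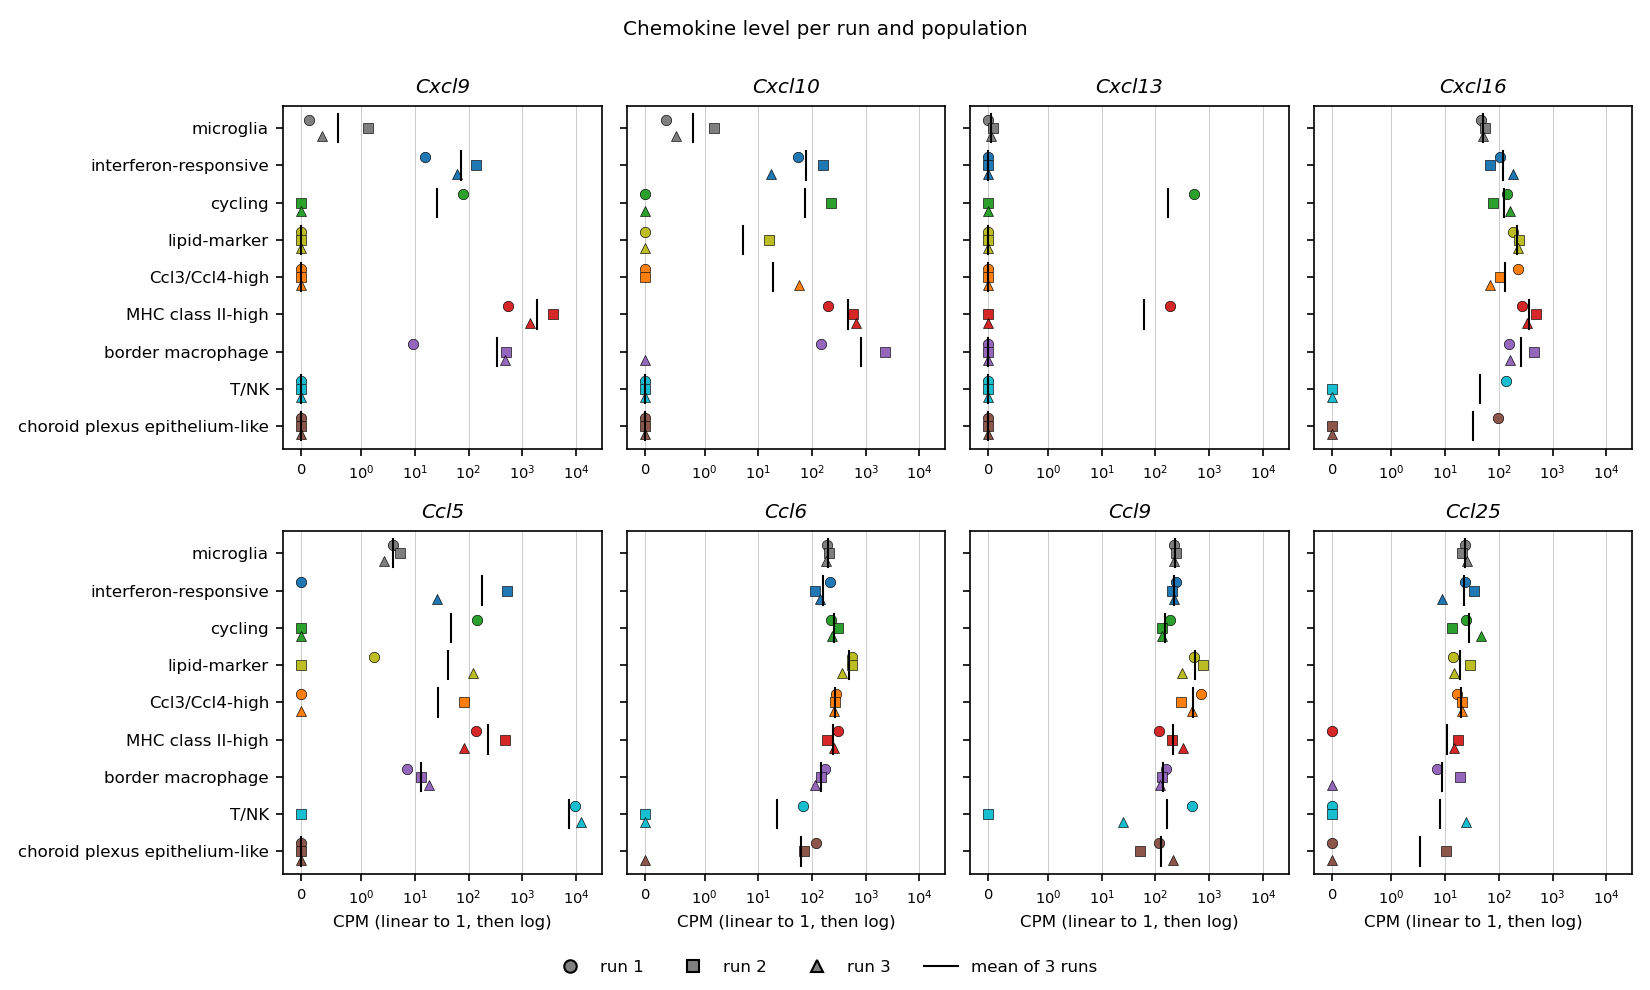
Level of each chemokine in each population, in CPM (axis linear to 1, then log), 1 point per run and a bar for the mean of 3 runs. Cxcl16 is lowest in microglia (47.1 to 55.2 CPM) among the microglial and macrophage populations. By the mean of the runs, Ccl6 is highest in lipid-marker cells, and Ccl9 in lipid-marker and Ccl3/Ccl4-high cells.

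Ccl5 was first of all a T/NK gene. T/NK cells had 9559, 0 and 12295 CPM in runs 1, 2 and 3, from 2 of 2, 0 of 3 and 7 of 8 cells, and each of the 9 cells had at least 15 UMIs. These cells also held 39 UMIs of Cxcr6, the receptor gene for Cxcl16, at 1085, 1060 and 270 CPM. Cxcr6 had 4 UMIs in microglia and none in any other population. Ccl5 was also found outside lymphocytes. MHC class II-high cells had 139, 472 and 81.5 CPM (231 ± 211 CPM, n = 3), against 3.90, 5.36 and 2.68 CPM in microglia, and the log2 difference of 5.82 ± 0.39 passed (adjusted p = 2.4e-48), also without the highest cell of each run (4.77, adjusted p = 9.03e-14). In border macrophages the log2 difference was 1.68 (adjusted p = 0.0668), and 2.11 (adjusted p = 0.0171) without cells with mixed sex markers.

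The other Ccl5 calls each rested mainly on 1 run. Interferon-responsive cells had 0, 511 and 26.3 CPM, cycling cells 141, 0 and 0 CPM, lipid-marker cells 1.75, 0 and 122 CPM, and Ccl3/Ccl4-high cells 0, 82.6 and 0 CPM. The log2 differences were 4.45 ± 0.55 (adjusted p = 6.23e-14), 3.92 ± 0.48 (adjusted p = 2.91e-14), 2.69 ± 0.49 (adjusted p = 9.31e-07) and 2.64 ± 0.74 (adjusted p = 0.0108). Without Run 2 the first was 1.32 (adjusted p = 0.945). Without Run 1 the cycling value turned to -8.47, without Run 3 the lipid-marker value to -1.92, and without Run 2 the Ccl3/Ccl4-high value to -8.42, each in a population left with few or no UMIs. The Ccl3/Ccl4-high value stood on 1 cell with 12 UMIs.

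In the microglia gate 64 cells of 19042 held 309 Ccl5 UMIs, which is 26.1% of the total, and 22 of them had at least 5. None of the 64 had an Nkg7 UMI, and 1 had any T/NK marker (1.56%, against 3.89% of the 18978 microglia without Ccl5). Cd74, the class II invariant chain, was found in 42.2% of the 64 and in 6.62% of the rest, with median depths of 4458.5 and 3818 UMIs. Cxcl9 was found in 5 of the 64. Over all populations 18 cells had both Cxcl9 and Ccl5, which is 45.0% of cells with Cxcl9 and 17.3% of cells with Ccl5.

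Ccl6 and Ccl9 were general microglial chemokines. Ccl6 had 191, 209 and 185 CPM in microglia of runs 1, 2 and 3 (195 ± 12.1 CPM, n = 3), and Ccl9 had 226, 245 and 220 CPM (230 ± 13.3 CPM, n = 3). With each cell thinned to 2000 UMIs, 27.7% ± 1.6 of microglia had a Ccl6 UMI and 30.9% ± 1.4 a Ccl9 UMI (SD, n = 3), and unthinned 43.4% and 46.9% of all microglia had 1. In choroid plexus epithelium-like cells, with a median of 2826.5 UMIs against 3818 in microglia, the thinned shares were 11.1% and 5.56% as means of 3 runs. Pooled over runs, 6 and 3 of their 38 thinned cells had a Ccl6 or a Ccl9 UMI. Unthinned and pooled, the shares were 17.2% and 22.4% of all 58 cells. Choroid plexus epithelium-like cells were not free of microglial RNA. Their 10 microglia markers summed to 16154, 14511 and 13291 CPM in runs 1 to 3, against 31691, 40816 and 33199 CPM in microglia, and their Ccl9 level was 117, 50.7 and 209 CPM. Within microglia the shares of Ccl9 differed little with Ccl6. Of thinned microglia with a Ccl6 UMI, 34.2%, 36.0% and 34.3% in runs 1 to 3 had a Ccl9 UMI, against 30.7%, 30.0% and 27.5% of those without.

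Both rose in lipid-marker cells. Ccl6 had 553, 554 and 363 CPM there, each above every run of every other gated population, and the log2 difference from microglia was 1.39 ± 0.11 (adjusted p = 2.18e-36). Ccl9 had 516, 768 and 318 CPM, with a difference of 1.25 ± 0.10 (adjusted p = 2.42e-30). Both calls were kept under every alternative. In Ccl3/Ccl4-high cells Ccl9 had 708, 296 and 475 CPM and rose by 1.11 ± 0.15 (adjusted p = 6.58e-11), or 0.56 (adjusted p = 0.0220) without the highest cell of each run. Ccl6 had 283, 269 and 253 CPM there, above the microglia of every run, with a fitted difference of 0.51 that did not pass (adjusted p = 0.0653).

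Ccl9 was lower in border macrophages and cycling cells, while no Ccl6 difference passed there. Ccl9 had 158, 134 and 119 CPM in border macrophages and 183, 132 and 131 CPM in cycling cells, each below the lowest run of microglia. The differences of -0.60 ± 0.22 (adjusted p = 0.0456) and -0.69 ± 0.22 (adjusted p = 0.0128) passed narrowly. The first was lost in 8 of 12 alternatives and the second in 4 of 11, among them the fits without Run 2 (adjusted p = 0.314 and 0.0936) and without Run 3 (adjusted p = 0.359 and 0.136). The microglia markers of border macrophages summed to 19338, 10568 and 6279 CPM in runs 1 to 3, highest and lowest in the same runs as their Ccl9 and Ccl6 levels, and the part of microglial RNA in these levels was not tested. Ccl6 had 171, 147 and 116 CPM in border macrophages, 224, 303 and 233 CPM in cycling cells, 221, 114 and 140 CPM in interferon-responsive cells and 302, 192 and 259 CPM in MHC class II-high cells. None of these passed, although each cycling run lay above each run of microglia. The last difference was 0.60 (adjusted p = 0.0648). In T/NK cells 1 UMI of Ccl6 and 8 of Ccl9 were counted.

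Ccl25 was a faint and even signal of microglia, with 23.8, 20.9 and 25.9 CPM (23.5 ± 2.5 CPM, n = 3). Of the cells with Ccl25, 92.1% had a single UMI. In thinned microglia 4.50% ± 0.46 had a Ccl25 UMI (SD, n = 3), and no choroid plexus epithelium-like cell had, while 1.72% of these had 1 before thinning. Interferon-responsive cells had 23.7, 34.1 and 8.77 CPM, cycling cells 24.2, 13.2 and 46.6 CPM, lipid-marker cells 14.0, 28.7 and 14.7 CPM and Ccl3/Ccl4-high cells 16.6, 20.7 and 20.7 CPM, and none of these passed. MHC class II-high cells had 0, 17.5 and 14.55 CPM, with a log2 difference of -0.68 that did not pass (adjusted p = 0.564). Their runs and those of Ccl3/Ccl4-high cells all lay below the lowest microglia run. In border macrophages Ccl25 had 7.08, 19.2 and 0 CPM, also each below the lowest microglia run. It fell there by 1.64 ± 0.49 on the log2 scale (adjusted p = 0.00916). This lower level was known from earlier work on these data and is no independent support. The call was lost without Run 1 (-1.57, adjusted p = 0.242), without Run 3 (-1.23, adjusted p = 0.270) and without cells with mixed sex markers (-1.47, adjusted p = 0.0541).

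The receptors of these chemokines were uneven across the same cells. Ccr1, which binds Ccl5, Ccl6 and Ccl9, rose by 3.41 on the log2 scale in border macrophages and 1.70 in MHC class II-high cells. Cxcr3, the receptor of Cxcl9 and Cxcl10, rose by 3.99 and 3.43 in the same populations. Adam10, which sheds Cxcl16, fell in both (by 0.81 and 1.42). Ccr9, the receptor of Ccl25, rose by 4.88 in MHC class II-high cells. Of the 13 receptors and processing enzymes, 7 were tested in MHC class II-high cells and 6 in each other contrast. As with Cxcl9 and Cxcl10, a gene could enter a fit only through the population in which it was high. Such genes were not separated here, so these differences and counts are descriptions. In border macrophages 4 of 6 passed (12.7% of all genes), in MHC class II-high cells 5 of 7 (16%) and in cycling and lipid-marker cells 1 of 6 each (17.3% and 15.9%). In interferon-responsive and Ccl3/Ccl4-high cells edgeR called 0 of 6, with 2 and 1 at an unadjusted p under 0.05, and DESeq2 called 0 in both.

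Of 18 other chemokines on a list, 5 to 9 were tested per contrast. Ccl3 and Ccl4, which are on this list, define the last gate read before microglia. The microglia compared thus lacked the cells with the most Ccl3 and Ccl4, while populations gated earlier kept theirs. Differences of Ccl3 and Ccl4 are therefore partly set by the gates. A gene could pass the count filter only through the population in which it was high, as Cxcl9 and Cxcl10 did. Such genes were not separated here, so the counts and the median below are descriptions. In border macrophages 8 of the 9 tested rose and none fell, where 7.72% of all genes rose. Their median log2 difference was 4.39, against -0.10 over all genes tested. Ccl8 and Ccl7, monocyte attractants, led with 12.63 and 8.25. In MHC class II-high cells 6 of 8 rose (8.24% of all genes), among them Ccl7 (8.37) and Cxcl14 (5.53). In interferon-responsive cells 3 of 6 rose (1.88% of all genes): Ccl2 by 4.73, Ccl12 by 4.27 and Ccl4 by 2.52. In Ccl3/Ccl4-high cells 3 of 5 rose (3.2% of all genes), with Ccl2 at 8.67. In lipid-marker cells 4 of 6 rose (7.86% of all genes), with Ccl4 at 6.09 and Ccl3 at 5.31. In cycling cells 2 of 6 rose (9.39% of all genes), Ccl2 by 3.44 and Ccl12 by 1.46.

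Of 17 regulators of the interferon and NF-kappaB pathways, 14 were tested in interferon-responsive and cycling cells and 15 in each other contrast. Genes that passed the count filter only through the population in which they were high were not separated here either. The differences and counts below are therefore descriptions. In interferon-responsive cells 5 of 14 rose and 1 fell, where 2.36% of all genes passed. Among them the interferon signal transducer Stat2 rose by 3.11, the guanylate-binding protein gene Gbp2 by 3.59, Irf1 by 1.60 and Irf9 by 0.97, while the interferon-gamma receptor gene Ifngr1 fell by 0.45. In MHC class II-high cells 5 of 15 rose and 1 fell, where 16% passed, among them Il1b by 7.26, Gbp2 by 5.89, Stat2 by 1.82 and Irf1 by 1.43, with Ifngr1 lower by 1.25. In border macrophages 7 of 15 rose and 1 fell, where 12.7% passed, among them Il1b (6.22) and Gbp2 (3.26). In Ccl3/Ccl4-high cells the cytokine genes Il1b and Tnf rose by 7.64 and 3.50 and the NF-kappaB genes Nfkbia and Nfkb1 by 0.97 and 0.76, and 1 gene fell, so 5 of 15 passed against 5.15% of all genes. In lipid-marker cells 2 of 15 rose and 2 fell, where 15.9% of all genes passed in either direction. In cycling cells 4 of 14 fell and none rose, where 7.88% of all genes fell.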

How the data were processed

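The deposited tables hold raw counts of UMIs per gene and barcode. Per the submitters' processing notes, Cell Ranger, mm10 and Seurat 4.0 were used by the authors, and software versions 3.0.2 (Run 1) and 3.1.0 (runs 2 and 3) stand in the deposited count files, per the file headers. Whether counting used strand is not given in the sources used here, so reads of Art3, Zmynd15 and Elavl1 cannot be told apart from those of the genes they overlap. No normalized values were used. The depth was 34140879, 24717907 and 24225612 UMIs in runs 1, 2 and 3. Gene IDs were looked up in GENCODE M21 (99.6% of 31053 found).

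Cells were gated in the order T/NK (at least 3 of 11 markers), border macrophage (3 of 8), MHC class II-high (H2-Aa, H2-Ab1 and H2-Eb1 each with a UMI and at least 10 Cd74 UMIs), choroid plexus epithelium-like (3 of 8), then, among cells with at least 3 of 10 microglia markers, cycling (4 of 10), interferon-responsive (4 of 9), lipid-marker (3 of 7), Ccl3/Ccl4-high (at least 20 UMIs of both per 10000) and microglia. No doublet caller was run, and cells with at least 2 Xist UMIs and 1 Y-linked UMI were left out in an alternative. Counts summed per run and population were tested with edgeR 4.0.16 in R 4.3.3 (glmQLFit, glmQLFTest, TMM, filterByExpr, run as a block) where a population had at least 10 cells in each run. In each contrast the markers of the gate compared and of the microglia gate were not tested, while markers of the other gates were. The 2 sums of a run share 1 library. Deviations of same-run sums from their population's mean had correlations of 0.117 to 0.382 across genes, which are not independent. The prior degrees of freedom of these fits were infinite. Each standard error was worked back from the test, as the absolute log2 difference divided by the square root of the test's F statistic. Intervals and floors (3 counts) cover counting error only. Cells were thinned to 2000 UMIs for shares, and shallower cells were left out.

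All 8 members are named, and of the lists only genes that passed, not all of which are reported here. Members and lists were chosen with earlier results of these data known, and the split of border macrophages by the MHC gate after the values had been seen. Alternatives were DESeq2 1.42.0 (size factors and Wald test), no filter on low counts, no block, each run left out, stricter gates, a stricter cell filter, and fits without cells of mixed sex markers, without cells holding astrocyte markers and without each member's highest cell.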

Additional observations from a re-analysis of the deposited data

Results flagged for a closer look

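Ccl6 and Ccl9 also appeared in cells that no comparison used. The 14 cells that met no gate held 54 Ccl6 UMIs, or 1117.67 CPM, and 20 Ccl9 UMIs, or 413.95 CPM. These are above the highest microglia run of 209 and 245 CPM. By run, Ccl6 had 407, 1373 and 1918 CPM in these cells, above microglia in each, whereas Ccl9 had 174, 687 and 128 CPM, above microglia in Run 2 alone. The cells, 9, 3 and 2 per run, also held 230 UMIs of the 4 neutrophil markers and 284 UMIs of the 4 monocyte markers, among them S100a8, S100a9 and Plac8. The part of these markers' cells in the result was not tested.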

How the results depend on the processing

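Of 36 differences of single chemokines from microglia, 23 passed, and 13 of these passed under every alternative that gave a value. The 13 include the calls of Cxcl9 and Cxcl10, which entered these fits only through the population in which they were high. Those calls are no support for a difference. No difference that passed in both fits changed sign. Of 411 values, 354 kept direction and call, 29 lost the call, 5 gained it and 23 changed sign. The fits without the highest cells, without cells of mixed sex markers and without astrocyte-marker cells were chosen after seeing the data.

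Sign changes with a run left out, as the range over the 3 such fits, were found in interferon-responsive cells for Ccl6 (-0.66 to 0.033), Ccl9 (-0.18 to 0.081) and Ccl25 (-0.36 to 0.18), in cycling cells for Ccl5 (-8.47 to 4.45) and Ccl25 (-0.20 to 0.23), in MHC class II-high cells for Ccl9 (-0.38 to 0.50), in lipid-marker cells for Ccl5 (-1.92 to 3.66) and Ccl25 (-0.72 to 0.032) and in Ccl3/Ccl4-high cells for Ccl5 (-8.42 to 3.23). Other sign changes in interferon-responsive cells were Ccl9 (0.059 with DESeq2 size factors, 0.036 with DESeq2's Wald test, 0.13 with 1 more marker) and Ccl25 (0.25 with 1 more marker, 0.0012 with the stricter cell filter, 0.053 without mixed sex markers). With 1 more marker Ccl6 in cycling cells was -0.019, and without astrocyte-marker cells Ccl25 there was -0.016. Without the highest cells they were Ccl6 (-0.23) and Ccl25 (-0.61) in cycling, Ccl6 (-0.044) and Ccl9 (-0.33) in MHC class II-high and Ccl5 (-8.31) in Ccl3/Ccl4-high cells, and with DESeq2's Wald test Ccl5 in lipid-marker cells (-0.11).

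Counts of all genes passing stayed within 1.5 times in 45 of 64 values. Without the replicate block they were 157 instead of 263 in interferon-responsive cells, 812 instead of 1454 in border macrophages, 580 instead of 1806 in lipid-marker cells and 160 instead of 574 in Ccl3/Ccl4-high cells. With DESeq2's Wald test they were 1167 instead of 1949 in cycling cells, 928 in border macrophages, 1191 instead of 1807 in MHC class II-high cells, 1044 in lipid-marker and 323 in Ccl3/Ccl4-high cells. With 1 more marker the lipid-marker count was 886. With a run left out they ranged from 151 to 234 (interferon-responsive), 1049 to 1528 (cycling), 589 to 1576 (border macrophage), 840 to 1625 (MHC class II-high), 1140 to 1415 (lipid-marker) and 255 to 462 (Ccl3/Ccl4-high). The cause was not tested.

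The replicate block ended 5 of the single calls when it was left out: Ccl9 in cycling cells and border macrophages, Ccl25 in border macrophages, and Ccl5 in lipid-marker and Ccl3/Ccl4-high cells. DESeq2's Wald test gave no adjusted p for Ccl5 in Ccl3/Ccl4-high cells. Cycling cells under the stricter cell filter and MHC class II-high cells with 20 Cd74 UMIs were not run, with under 10 cells in a run.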

Other observations

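The genes whose levels followed each chemokine most closely over 21 points (7 populations in 3 runs, log2 of CPM plus 1, Pearson's r, points of a run sharing a library) are given as a description. Cxcl9 was closest to Pstpip1 (0.92), Ifi27l2a (0.91) and Gbp2 (0.91), and Cxcl10 to Psme1 (0.73), Psmb8 (0.72) and Ly6a (0.72). Cxcl16 was closest to Myl6 (0.87), Fth1 (0.86) and Fxyd5 (0.84), and Ccl9 to Ptchd1 (0.85), Socs2 (0.85) and Pdgfa (0.84). Ccl6 was closest to Slc25a5 (0.79), Ank (0.78) and Glipr1 (0.78), and Ccl25 to Ctu2 (0.92), Tbc1d22a (0.87) and Gsg1 (0.87). Ccl5 was closest to Cyp4f18 (0.75), Pla2g16 (0.70) and Riox2 (0.70). For Cxcl13, with 166 of its 169 UMIs in 4 cells of Run 1, the values were Spidr 0.69, Fam19a1 0.67 and Ccdc78 0.66.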
